A study of Saccharomyces cerevisiae with 49 samples.

Results

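Amino acid permeases are membrane proteins that import amino acids from the medium into the yeast cell, driven by the proton gradient across the plasma membrane. The 10 genes described here are GAP1, AGP1, BAP2, BAP3, TAT1, TAT2, GNP1, DIP5, HIP1 and MUP1, chosen by gene symbol in the platform annotation, out of 5449 Saccharomyces cerevisiae genes on the array. Each had 1 probe set, and all 10 passed the filter on dim probe sets. In baker's yeast the expression of these transporters is known to answer to external amino acids, through a plasma membrane sensor (Ssy1 with Ptr3 and Ssy5) that releases the transcription factors Stp1 and Stp2, and to nitrogen quality, through GATA factors such as Gln3 and Gat1. MUP1 is also known as a target of the regulators of sulfur amino acid genes.

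The samples came from 1 continuous culture of the haploid strain CEN.PK113-7D, mating type a, fed with glucose medium that held ammonium sulfate and yeast extract, which went through metabolic cycles of roughly 4 h. RNA was hybridised to 49 arrays, with a sample every 5 min, and each label carries a phase angle, without saying what marks phase 0. The first pass was divided into 6 windows, each 60 degrees wide (7 samples in phase 300-360, 8 in each of the others), and 2 last samples that overlapped the next cycle are called the second pass. All samples share 1 strain, 1 culture and 1 medium, so a p-value here measures only how samples of a single run scatter, and neighbours in time depend on each other. Array medians of the deposited signals ran from 1450 to 2582 over the S. cerevisiae probe sets, and each array was set to the same median before log2 was taken. Signals below are on this scale, and levels are compared between samples and not between genes. Median signals of the 7 markers of mating type a ran from 1011 for ASG7 to 8820 for MFA2. Those of the 4 markers of mating type alpha ran from 85.8 for MF(ALPHA)2 to 1280 for SAG1, all above 6.15, the median over probe sets of another yeast species, so no alpha marker was at background and these signals do not settle the labelled mating type.

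Of the 10 permease transcripts, 6 were high at the start of the cycle, but they left that pulse by different routes. HIP1, GNP1 and MUP1 had a sharp peak, with 3 successive samples each above 50% of the maximum, whereas AGP1, BAP3 and TAT2 were above it for 10, 9 and 9 successive samples. This mark takes no account of the level outside the pulse. The maximum was 7.56, 7.48 and 7.01 times the mean of phase 240-300 for HIP1, GNP1 and MUP1. For AGP1, BAP3 and TAT2 it was 2.45, 5.4 and 3.3 times that mean, so a long run is easier to reach for AGP1 and TAT2. TAT2 did come down within phase 0-60, from 5313 at 17.35 degrees to 3026 at 55.62 degrees, so its run is not a plateau. DIP5 had a pair of peaks, GAP1 had a pair of troughs, and BAP2 was low in phase 0-60. The highest of the 49 samples was the one at 9.7 degrees for GAP1, AGP1, TAT1, GNP1, HIP1 and MUP1, 6 of the 10 members, while 9.36% of the 5469 probe sets tested had their highest sample there. It was the sample at 17.35 degrees for TAT2, at 55.62 degrees for BAP3, at 70.93 degrees for DIP5 and at 116.85 degrees for BAP2.

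**Figure D1:**
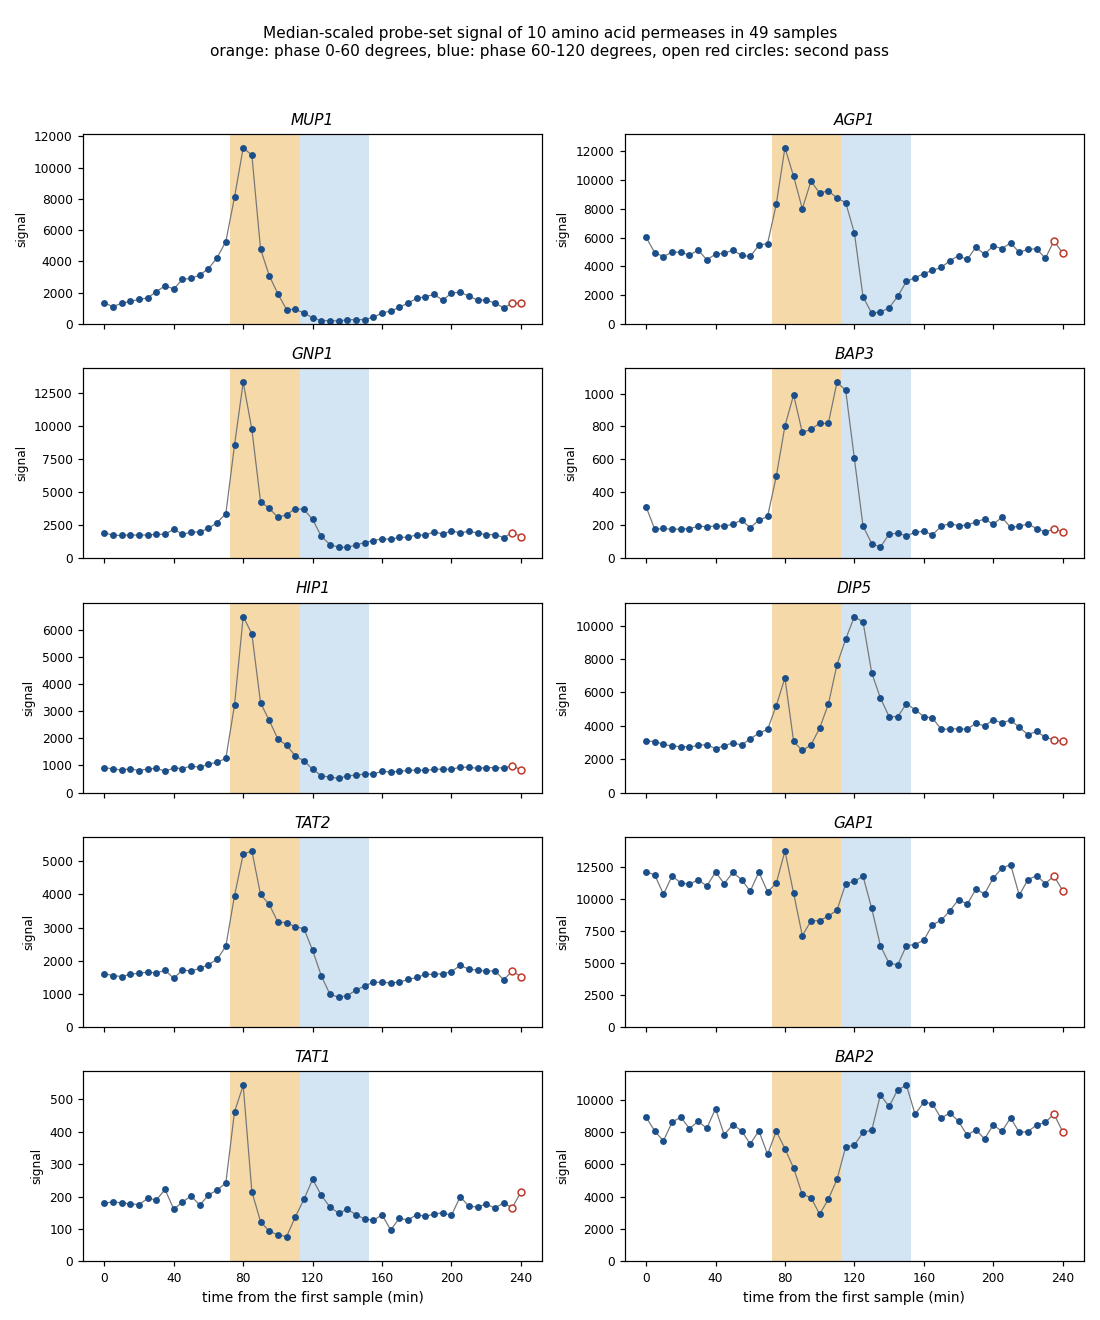
Median-scaled probe-set signal (y axis, linear from 0) against time from the first sample in minutes (x axis) for the 10 permeases, with 1 point per array, 49 arrays. Orange marks phase 0-60, blue marks phase 60-120 and open red circles are the 2 samples of the second pass. MUP1, GNP1 and HIP1 peak at 9.7 degrees and TAT2 at 17.35 degrees inside the orange band, DIP5 is highest at 70.93 degrees in the blue band and BAP2 is lowest at 40.31 degrees.

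When a cosine and a sine of the angle were fitted to all 49 samples (limma's moderated F test, Benjamini-Hochberg adjustment over 5469 probe sets, threshold 0.05), 10 of 10 members were called, where 88.5% of all probe sets were called. The median fitted peak-to-trough ratio was 2.04-fold over the members and 1.45-fold over all probe sets. MUP1 had the largest fitted ratio of the 10, at 6.10-fold (log2 2.61, SE 0.44, adjusted p = 6.84e-06), and BAP2 the smallest, at 1.49-fold (log2 0.58, SE 0.13, adjusted p = 0.000433). A single cosine described these profiles poorly, with an R2 from 0.193 for AGP1 to 0.524 for DIP5. Without the 8 samples of phase 0-60 the call for BAP3 was lost (log2 ratio 0.32, adjusted p = 0.568), and with every second sample 7 or 8 members were called. Of the 5469 probe sets, 4140 were called without phase 0-60, 3821 with the even samples and 3918 with the odd samples.

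Phase 0-60 was the window of the pulse. Of the 10 members 6 were high there against the mean of the other 5 windows and 1 was low (limma, 47 samples of the first pass, adjusted over 5469 probe sets), where 39.8% of all probe sets were high and 43.2% low. The median difference was 2.38-fold over the members and 0.98-fold over all probe sets. The ratio of 3' to 5' signal of the control transcript TDH1, used as a measure of RNA quality, was also higher in this window. It was log2 0.316 ± 0.166 (SD, n = 8) against 0.0656 ± 0.0712 (SD, n = 41) on the other arrays. It rose in every sample from 0.0629 at 2.04 degrees to 0.5949 at 40.31 degrees and was 0.2241 at 55.62 degrees. RNA quality and phase cannot be told apart in it. Its part in these results was not tested beyond a fit with this ratio as a term. In that fit the same 6 members were high and BAP2 was low by less, with a log2 difference of -0.35 (adjusted p = 0.00313) in place of -0.80, and DIP5 (log2 difference 0.47, adjusted p = 0.0221) and TAT1 (0.66, adjusted p = 0.0124) were high as well. Over all 5469 probe sets, the same fit called 1898 high and 2191 low.

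HIP1 (YGR191W), the histidine permease, had signals from 1347 to 6475 in phase 0-60 with a median of 2936, and from 521.7 to 1254 with a median of 864.7 in the 39 other samples of the first pass. All 8 samples of phase 0-60 lay above all 39 others, so the groups did not overlap. The difference was 3.44-fold (log2 1.78, SE 0.14, adjusted p = 7.28e-15). The largest step between successive samples was the rise from 1254 at 354.23 degrees to 3216 at 2.04 degrees, 2.56-fold within 5 min. From its highest sample the signal then went down in every following sample until it reached its lowest value at 93.89 degrees.

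TAT2 (YOL020W), a high-affinity tryptophan permease, ranged from 3026 to 5313 in phase 0-60 with a median of 3831, and from 901.2 to 2969 with a median of 1604 in the 39 others. Here too all 8 samples lay above all others. The difference was 2.45-fold (log2 1.29, SE 0.12, adjusted p = 3.81e-13).

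GNP1 (YDR508C), a high-affinity glutamine permease, had signals from 3089 to 13331 with a median of 4026 in phase 0-60 and from 810.3 to 3690 with a median of 1774 elsewhere. Its groups overlapped, with 6 of 8 samples above all 39 others. The difference was 3.05-fold (log2 1.61, SE 0.19, adjusted p = 3.04e-10), and only 3 samples, at 2.04, 9.7 and 17.35 degrees, exceeded 50% of the maximum.

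MUP1 (YGR055W), a high-affinity methionine permease, ran from 910.0 to 11276 in phase 0-60 with a median of 3932, and from 177.2 to 5268 with a median of 1509 in the other samples. The groups overlapped, with 3 of 8 samples above all others. The difference was 2.96-fold (log2 1.56, SE 0.29, adjusted p = 5.89e-06). Across the 49 samples MUP1 had the widest span of the 10 members, with its highest signal 63.7 times its lowest.

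AGP1 (YCL025C), a permease of low affinity for asparagine, glutamine and many other amino acids, ranged from 8002 to 12245 in phase 0-60 with a median of 9171, and from 724.0 to 8428 with a median of 4836 elsewhere. Of the 8 samples 6 lay above all 39 others. The difference was 2.32-fold (log2 1.21, SE 0.21, adjusted p = 1.51e-06).

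BAP3 (YDR046C), a permease of branched-chain amino acids, ranged from 496.1 to 1069 in phase 0-60 with a median of 810.7. The other 39 samples held signals from 66.5 to 1019 with a median of 193.4, and the sample at 63.27 degrees supplied their highest value. The difference was 4.07-fold (log2 2.02, SE 0.23, adjusted p = 6.78e-11), the largest of the 10 members.

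BAP2 (YBR068C), a permease of leucine, isoleucine and valine, moved in the other direction. It had signals from 2910 to 8056 in phase 0-60 with a median of 4609, and from 6621 to 10883 with a median of 8438 in the 39 others. Of the 8 samples 6 lay below all others. The ratio was 0.573 (log2 difference -0.80, SE 0.09, adjusted p = 1.98e-10).

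GAP1 (YKR039W), the general amino acid permease, DIP5 (YPL265W), a permease of glutamate and aspartate, and TAT1 (YBR069C), a permease of tyrosine, tryptophan and branched-chain amino acids, did not pass the test in this window, with log2 differences of -0.08 (SE 0.11), 0.13 (SE 0.13) and -0.04 (SE 0.19). For TAT1 the window mean held values from both ends of its range. The signal was 461.9 at 2.04 degrees and 543.3 at 9.7 degrees, above all 39 other samples, and 92.9, 82.2 and 76.4 at 32.66, 40.31 and 47.97 degrees, below all of them.

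**Figure D2:**
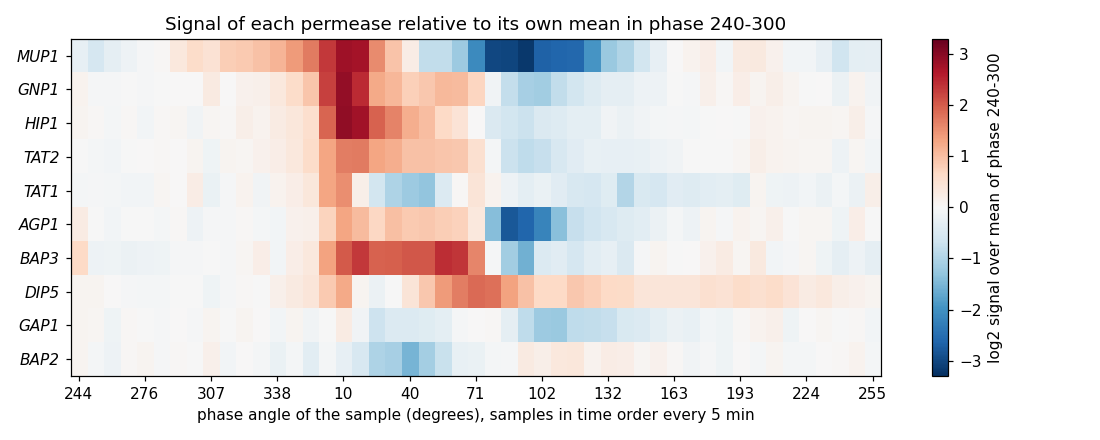
Log2 of each permease's signal over its own mean in phase 240-300 (colour) for 49 samples in time order (x axis, labelled with the phase angle in degrees) and 10 genes (y axis). MUP1, GNP1 and HIP1 share the deepest red at 9.7 degrees, BAP3 stays red to 70.93 degrees, DIP5 turns red around 70.93 degrees, and MUP1 and AGP1 hold the deepest blue between 78.58 and 101.55 degrees.

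Within phase 0-60 the members separated by how soon they came down. The 4 samples of phase 30-60 were compared with the 4 of phase 0-30 in a fit of 30-degree windows (limma, adjusted over 5469 probe sets). Of the 10 members 7 were lower in phase 30-60 and 0 were higher, where 29% of all probe sets were lower and 34.1% higher. The arrays of phase 30-60 were brighter as deposited, and without median scaling the median difference of all probe sets was log2 0.38 instead of 0.01. As deposited, 4 members were called lower, namely MUP1, GNP1, HIP1 and TAT1, where 556 of 5469 probe sets were lower and 2837 higher. The values of BAP2 (-0.28, adjusted p = 0.176) and TAT2 (-0.13, adjusted p = 0.61) no longer passed while that of GAP1 turned to 0.10 (adjusted p = 0.617).

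MUP1 showed the largest difference. Its signals were 8109, 11276, 10801 and 4781 in phase 0-30 and 3083, 1909, 910.0 and 917.0 in phase 30-60, so all 4 early samples lay above all 4 late ones. The ratio of late to early was 0.18 (log2 difference -2.48, SE 0.32, adjusted p = 4.7e-08).

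TAT1 went from 461.9, 543.3, 215.2 and 123.0 in the early samples to 92.9, 82.2, 76.4 and 137.3 in the late ones, and only the last late sample exceeded an early one. Its ratio was 0.331 (log2 difference -1.59, SE 0.24, adjusted p = 5.44e-07). HIP1 had early signals of 3216, 6475, 5840 and 3304 and late signals of 2656, 1968, 1744 and 1347, which did not overlap, with a ratio of 0.418 (adjusted p = 1.76e-07). The early signals of GNP1 were 8559, 13331, 9760 and 4270 and the late ones 3781, 3089, 3293 and 3742, again without overlap, with a ratio of 0.417 (adjusted p = 2.48e-05).

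AGP1 and BAP3 did not pass the test. AGP1 had 8306, 12245, 10258 and 8002 in phase 0-30 and 9922, 9090, 9251 and 8745 in phase 30-60, and the late samples lay inside the early range, with a log2 difference of -0.05 (SE 0.38, adjusted p = 0.916). BAP3 had 496.1, 802.6, 992.3 and 763.4 followed by 783.0, 818.8, 818.9 and 1069, groups that overlapped, with a difference of 0.22 (SE 0.37, adjusted p = 0.606). These SEs pool the spread of all 30-degree windows of the first pass. In phase 60-90 AGP1 fell from 8428 to 724.0 and BAP3 from 1019 to 88.8, which widens the SEs. In phase 0-30 and phase 30-60 the SDs of log2 signal were 0.29 and 0.08 for AGP1 and 0.42 and 0.21 for BAP3. The differences leave room for a change of either sign.

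DIP5 did not pass either (log2 difference 0.17, SE 0.20, adjusted p = 0.462), but it was called higher in phase 30-60 with the TDH1 ratio as a term (0.58, adjusted p = 0.00663). It came down and went up again inside the window. Its signal was 5203 and 6866 at 2.04 and 9.7 degrees, 3063 and 2519 at 17.35 and 25 degrees, and then 2849, 3861, 5281 and 7664 in the 4 late samples. The value of GAP1 (-0.27, SE 0.12, adjusted p = 0.0423) was close to the threshold and did not pass when any of 6 of the 8 samples was left out, with values between -0.13 and -0.27. It was also lost with quantile normalization (-0.12, adjusted p = 0.415) and with the TDH1 ratio as a term (-0.11, adjusted p = 0.421).

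**Figure D3:**
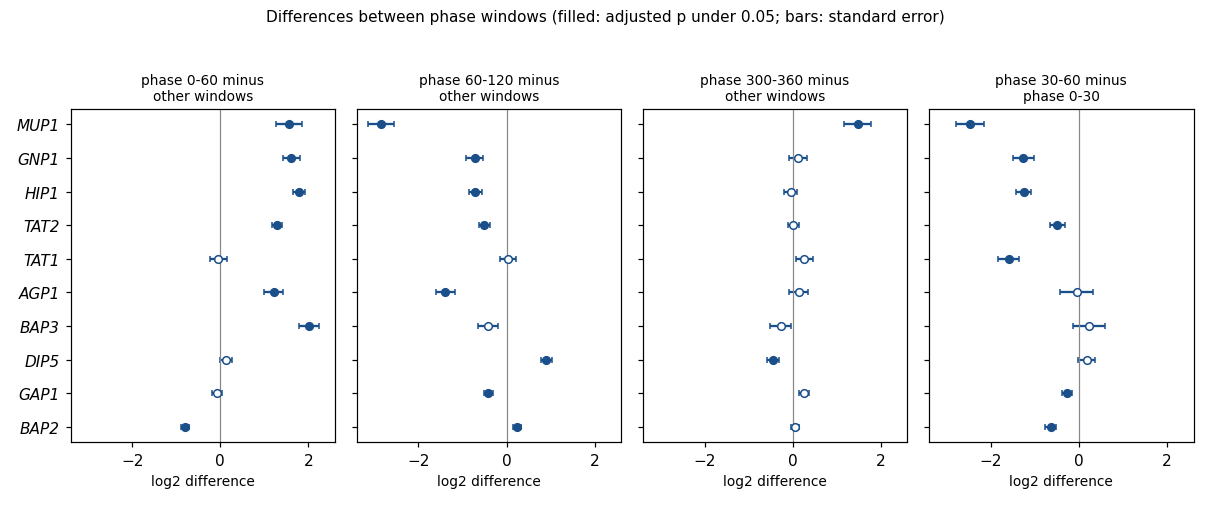
Log2 differences (x axis) of the 10 permeases (y axis) for 3 windows against the mean of the other windows and for phase 30-60 against phase 0-30. Points are limma estimates, bars are standard errors, and filled points have an adjusted p under 0.05. BAP2 is the only filled point left of 0 in phase 0-60, and MUP1 lies farthest to the left in phase 60-120 and in the comparison of phase 30-60 with phase 0-30.

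In 2 pairs of paralogues picked from the members the ratio of the partners changed across phase 0-60, in tests chosen after the values were seen. Ratios of other related members were not tested. AGP1 and GNP1 are paralogues, as are BAP2 and BAP3. The log2 ratio of AGP1 to GNP1 was on average 0.20 ± 0.48 (SD, n = 4) early, in phase 0-30, and 1.42 ± 0.14 (SD, n = 4) late, in phase 30-60, a difference of 1.21. For BAP3 over BAP2 the early mean was -3.03 ± 0.73 (SD, n = 4) and the late mean -2.16 ± 0.23 (SD, n = 4), a difference of 0.87. In either case the 4 late samples lay above the 4 early ones, and the exact two-sided permutation test gave p = 0.0286, adjusted over 2 pairs 0.0286, the smallest p that 4 samples against 4 allow. The test treats the samples as exchangeable, but they are successive samples of 1 run. Any ratio that drifts in 1 direction can give this p, so it cannot decide whether the paralogues differ beyond this run. These ratios do not depend on the scaling of the arrays. Probe sequences were not used here, so how far paralogues share signal was not tested.

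**Figure D4:**
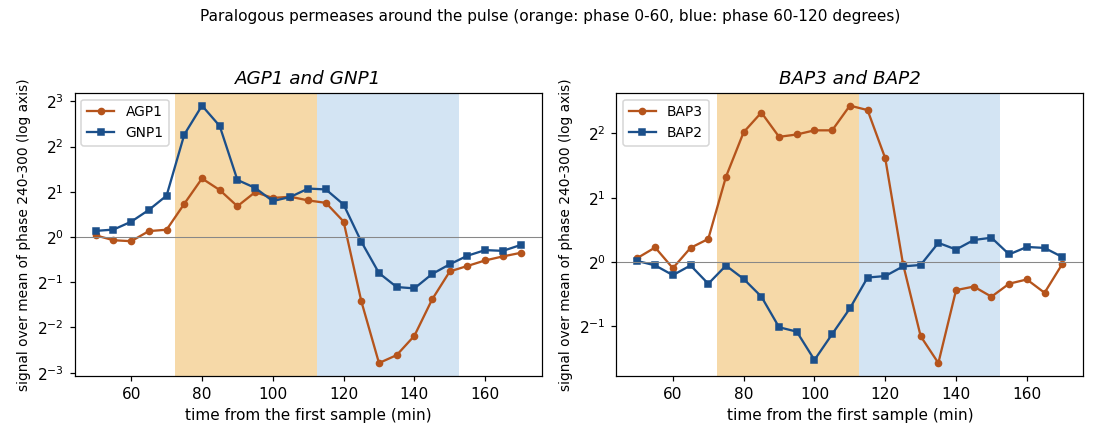
Signal over the gene's own mean in phase 240-300 (y axis, log scale) against time from the first sample in minutes (x axis) for AGP1 with GNP1 and for BAP3 with BAP2, 1 point per array. Orange marks phase 0-60 and blue phase 60-120. GNP1 peaks at 7.48 times its reference mean and AGP1 at 2.45 times, and BAP2 is lowest at 40.31 degrees while BAP3 is above 4 times its reference mean near that phase.

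In phase 60-120 most members were low. Of the 10, 6 were low against the other windows and 2 were high, where 30.6% of all probe sets were low and 38.2% high (limma, 47 samples). For this and each later window, the other windows include phase 0-60, the window of the pulse. MUP1 ran from 177.2 to 695.4 in this window with a median of 257.4, and from 415.8 to 11276 with a median of 1736 elsewhere. Of the 8 samples 7 lay below all 39 others, and the ratio was 0.139 (log2 difference -2.85, SE 0.29, adjusted p = 3.69e-11).

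AGP1 dropped out of its plateau within a few samples. Its signal was 8428 at 63.27 degrees, 6328 at 70.93 degrees, 1869 at 78.58 degrees and 724.0 at 86.24 degrees, 15 min after the first of these. The step from 70.93 to 78.58 degrees, a 3.39-fold decrease, was the largest between successive samples of any member. The window ratio was 0.382 (log2 difference -1.39, SE 0.21, adjusted p = 2.57e-07), with 6 of 8 samples below all others.

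BAP3 made its largest step at the same place, from 605.5 at 70.93 degrees to 194.0 at 78.58 degrees, a 3.12-fold decrease. Its signal was lowest at 93.89 degrees, at 66.5, which was also the lowest signal of any member in any sample and above the limit of 11.3 for dim probe sets. The window as a whole did not pass the test, and it also held 1019 at 63.27 degrees. The lowest samples of TAT2 and HIP1 came at 93.89 degrees as well, where MUP1 also had its lowest, so 4 of the 10 members were lowest in that sample, where 5.25% of all probe sets were.

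HIP1, GNP1 and TAT2 were low in phase 60-120 with ratios of 0.612, 0.608 and 0.706 (adjusted p = 3.41e-05, 0.0011 and 0.000314). GAP1 was low with a ratio of 0.752 (log2 difference -0.41, SE 0.11, adjusted p = 0.000984). GAP1 had a pair of troughs, with 7150 at 25 degrees and 4880 at 109.2 degrees, and 11807 between them at 78.58 degrees. When time entered as a linear term, the values of GNP1 (-0.37, adjusted p = 0.166) and GAP1 (-0.27, adjusted p = 0.086) no longer passed. With the even samples alone GNP1, GAP1 and TAT2 did not pass (adjusted p = 0.0902, 0.0681 and 0.0694). Over all 5469 probe sets, calls in this window went from 3761 to 2876 with the linear term and to 2432 with the even samples.

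DIP5 was high in this window. Its signals ran from 4544 to 10535 with a median of 6411, against 2519 to 7664 with a median of 3658 in the others, and 3 of 8 samples lay above all 39 others. The difference was 1.87-fold (log2 0.91, SE 0.13, adjusted p = 9.41e-08). Of 9 samples above 50% of the maximum, 7 were successive, from 47.97 to 93.89 degrees. The first peak, 6866 at 9.7 degrees, was also above it.

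BAP2 was 1.18-fold higher in phase 60-120 (log2 0.24, SE 0.09, adjusted p = 0.0216), with its highest signal, 10883, at 116.85 degrees. This call was lost with quantile normalization (0.17, adjusted p = 0.0652), with the TDH1 ratio as a term (0.12, adjusted p = 0.139) and in both subsets of every second sample. BAP2 and TAT1 are adjacent genes in the RefSeq gene table of assembly R64, and their lowest samples were neighbours in time, at 40.31 degrees for BAP2 and 47.97 degrees for TAT1. At 2.04 and 9.7 degrees TAT1 had its highest signals and BAP2 8056 and 6972, which are inside and below its range of 7450 to 8918 in phase 240-300.

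The rest of the cycle held smaller differences. In phase 120-180, 1 member was high, where 20.7% of all probe sets were, and 4 were low, where 22.3% were. HIP1 had a ratio of 0.723 (adjusted p = 0.00893), TAT2 0.746 (0.00504), GNP1 0.715 (0.0381) and GAP1 0.834 (0.0476), and BAP2 was 1.19-fold higher (0.0303). The other windows in these ratios include the pulse of phase 0-60. Mean signals in phase 120-180 and phase 240-300 were 789.7 and 856.8 for HIP1, 1436 and 1612 for TAT2, and 1612 and 1781 for GNP1. They were 8642 and 11421 for GAP1 and 8917 and 8384 for BAP2. None of these 5 members passed with every second sample or with a linear term in time, and with the values as deposited only the call for HIP1 was left. Over all 5469 probe sets, 2353 were called in this window, 950 as deposited, and 303 and 488 with odd and even samples. With the linear term 4 were called, so that fit could not tell these members from other genes.

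In phase 180-240 limma called 0 members, with 1 at an unadjusted p under 0.05, where 7.9% of all probe sets passed as high and 6.84% as low. DIP5 was low in phase 240-300 and 0 members were high, where 14.4% of all probe sets were low and 14.5% high. DIP5 ran from 2727 to 3085 there with a median of 2848, a ratio of 0.669 (log2 difference -0.58, SE 0.13, adjusted p = 0.000913), a call lost with a linear trend over time (adjusted p = 0.164) and in both subsets of every second sample. Over all 5469 probe sets, calls in this window went from 1582 to 6 with that trend and to 380 and 186 in the subsets. Most signals varied little over the samples of phase 240-300. The coefficient of variation, the SD of all samples of the window over their mean, was 3.69% for TAT2, 3.82% for GNP1, 4.67% for DIP5, 4.96% for GAP1, 5.17% for HIP1, 5.91% for BAP2, 8.12% for TAT1 and 9.33% for AGP1. It was 23.6% for BAP3, with 1 array apart, and 27.4% for MUP1, whose signal was 1103 at 251.97 degrees and 2438 at 299.17 degrees.

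Several members had higher signals at the end of phase 300-360 than at its start, and MUP1 was the 1 member called high in that window, where 12.5% of all probe sets were high. From 307.04 to 354.23 degrees GNP1 went from 2186 to 3357, TAT2 from 1469 to 2436, DIP5 from 2626 to 3779 and HIP1 from 900.0 to 1254. GAP1 went down from 12138 to 10592 and BAP2 from 9445 to 6621. The array at 307.04 degrees was unusual, with 2.19% of all probe sets highest and 1.96% lowest there, against 0.549% and 0.384% at 314.9 degrees. At 314.9 degrees the signals were 1811 for GNP1, 1725 for TAT2, 2799 for DIP5 and 885.3 for HIP1. They were 11235 for GAP1 and 7832 for BAP2. DIP5 was low over the window as a whole with a ratio of 0.731 (adjusted p = 0.0133), where 13.8% of all probe sets were low. That call was lost with the values as deposited (log2 difference -0.41, adjusted p = 0.177), with a linear trend over time and in both subsets of every second sample. Over all 5469 probe sets, calls in this window went from 1437 to 534 as deposited, 49 with the linear trend, and 351 and 84 in the subsets. The 7 samples of MUP1 ran from 2224 to 5268 with a median of 3127, against 177.2 to 11276 with a median of 1381 in the 40 others, so the groups overlapped. The difference was 2.77-fold (log2 1.47, SE 0.31, adjusted p = 0.000495). A fit that held a linear trend over time gave 0.87 (adjusted p = 0.6), and with every second sample it passed in 1 of 2 subsets. The other 8 members did not pass in this window. MUP1 also had a low second maximum, at 2017 in the sample at 201.05 degrees, between 177.2 at 93.89 degrees and 1025 at 239.32 degrees.

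The second pass repeated phases close to those of the first 2 samples. MUP1 was at 1297 and 1313 in the second pass and at 1322 and 1103 in the first 2 samples, and GNP1 at 1935 and 1639 against 1929 and 1729. HIP1 was at 984.5 and 837.9 against 911.9 and 876.5. Log2 differences ran from -0.48 (SE 0.26, adjusted p = 0.964) for BAP3 to 0.11 (SE 0.10) for MUP1. Limma called 0 of 10 members and 0% of all probe sets, and 0 members and 286 of 5469 probe sets had an unadjusted p under 0.05, in a comparison of 2 against 2 samples. BAP3 was at 175.3 and 161.1 in the second pass and at 312.2 and 175.6 in the first 2 samples. Without the sample at 244.11 degrees its difference was -0.06, and without the one at 251.97 degrees it was -0.89 (adjusted p = 0.0333).

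Other genes that import, sense or sort amino acids were counted from 6 lists, to be read beside the 39.8% of all probe sets that were high and the 43.2% that were low in phase 0-60. Among 20 other amino acid permeases and related transporters of the plasma membrane, 10 were high in phase 0-60 and 5 low, and the median log2 difference was 0.27 beside -0.03 over all probe sets. In phase 30-60 against phase 0-30, 16 of the 20 were lower and 2 higher, beside 29% and 34.1% of all probe sets. With the values as deposited 8 were lower and 2 higher, where 556 of 5469 probe sets were lower and 2837 higher. ALP1, an arginine permease, had a ratio of 0.252 in phase 0-60 (adjusted p = 2.09e-14), with signals from 166.4 to 594.0 against a median of 1020 elsewhere. AGP2, a plasma membrane protein of the permease family known for carnitine uptake, had a ratio of 0.284 (adjusted p = 7.13e-12).

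Of 13 genes of the amino acid sensor pathway 5 were high and 6 low in phase 0-60, near the shares over all probe sets (39.8% and 43.2%). ASI1 and ASI2, inner nuclear membrane proteins that keep latent Stp1 and Stp2 from activating transcription, had ratios of 0.551 and 0.522 (adjusted p = 2.04e-09 and 6.57e-12). Of 25 matched regulators and targets of nitrogen catabolite repression 13 were high and 7 low, beside the same 39.8% and 43.2%. MEP3, an ammonium permease, was 4.11-fold higher (adjusted p = 8.88e-12), and DAL1, allantoinase, 3.92-fold (adjusted p = 1.15e-06), although the signal of DAL1 in the other samples reached down to 8.54, under the limit for dim probe sets.

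Of 28 genes of permease folding, sorting and ubiquitination 8 were high and 18 low in phase 0-60, where 39.8% of all probe sets were high and 43.2% low. ROD1, an arrestin-related adaptor of the ubiquitin ligase Rsp5, had a ratio of 0.333 and LSP1, a component of the plasma membrane domains called eisosomes, 0.325 (adjusted p = 1.52e-13 and 1.31e-13). Of 16 matched vacuolar amino acid transporters 6 were high and 6 low, near the shares over all probe sets, and AVT6 and ERS1 had ratios of 0.46 and 0.432. Of 18 regulators of amino acid and sulfur genes 11 were high and 4 low, beside 39.8% and 43.2% of all probe sets. MET32 and MET28, transcriptional regulators of sulfur amino acid genes, were 2.52-fold and 2.43-fold higher in phase 0-60 (adjusted p = 6.16e-12 and 6.28e-11).

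The genes whose log2 profile over the 49 samples was most like that of each member were named by Pearson's r, as a description, since all share the same arrays and most of the transcriptome moved. MUP1 was most like NOP8 and FUI1 (r = 0.96 each), and HIP1 like SDO1 and RRP42 (0.98 each). TAT2 was closest to YNL108C and SOK2 (0.97 each), and GNP1 to YMC2 (0.96) and RMD6 (0.95). AGP1 was nearest to TRP4 and ASN1 (0.92 each), and BAP3 to ASN2 (0.94) and SNU23 (0.93). For BAP2 the nearest were CAR2 and PST2 (0.95 each), for DIP5 MRPL17 (0.89) and DOT5 (0.88), for GAP1 GET2 (0.90) and HPA3 (0.86), and for TAT1 CWC25 (0.83) and HSH49 (0.82). Among the members themselves r was highest for TAT2 with GNP1 (0.96) and lowest for BAP2 with BAP3 (-0.78).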

How the data were processed

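The authors deposited 1 linear intensity per probe set and array, made with GCOS from Affymetrix Yeast Genome 2.0 arrays, per the submitters' processing notes and the labels' protocols. The sources used here give neither settings nor version. Each array was scaled to the median signal, 1891, of the 5498 probe sets of S. cerevisiae genes, with factors from 0.732 to 1.30. A floor of 1 preceded log2. Probe sets with a median above 11.3, the 75th percentile of 1746 probe sets of another yeast, were tested (5469, of 5427 genes). Tests used lmFit and eBayes of limma 3.58.1 in R 4.3.3 with Benjamini-Hochberg adjustment at 0.05 over all of them, and were tested on simulated data. The simulated noise was independent between samples and most simulated probe sets were flat. It therefore cannot show how the tests behave with dependent neighbours in time or with most of the transcriptome moving. Python 3.11.15 and scipy 1.17.1 were used for the rest. The number of arrays limits the precision.

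The members and the 6 lists were chosen with earlier results of these data known. Named genes were all 10 members, for each list the 2 called genes with the largest absolute difference in phase 0-60, and the 2 genes with the highest r to each member. DUR1,2 and VBA5 were not matched. Of several probe sets of a listed gene, the brightest on average was used. Comparisons used the windows of the labels' phase angle. Alternatives were other scalings, filters, an offset, an intensity trend, 2 harmonics, terms in array number, time and the TDH1 ratio, and subsets of samples. Promoter motifs were not searched and no sequences are printed.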

Additional observations from a re-analysis of the deposited data

Results flagged for a closer look

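Of 60 groups, 10 members in 6 windows, 6 held a sample far from the others. A rate of about 1 in 20 would hold for independent samples without a trend. Here the samples of a window are successive and all members share the arrays, so that rate does not apply to this count. In phase 240-300 the sample at 244.11 degrees, the first of the series, was highest and apart for 3 members. It stood at 6021 for AGP1 beside 5127 as the next highest, at 312.2 for BAP3 beside 193.2, and at 1929 for GNP1 beside 1807. With this sample left out, which was decided after seeing the data, the members called for the phase angle numbered 10, the high pairs of member and window 10 and the low pairs 12 in place of 13, and the pair that no longer passed was GAP1 in phase 120-180 (adjusted p = 0.0532).

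TAT1 was lowest and apart at 139.82 degrees in phase 120-180, at 97.0 beside 127.2, and highest and apart at 299.17 degrees in phase 240-300, at 222.0 beside 194.8. MUP1 was highest and apart at 63.27 degrees in phase 60-120, at 695.4 beside 372.7, the first sample of a window in which its signal was falling.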

How the results depend on the processing

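The members called for the phase angle numbered 10, and 7 to 10 under the alternatives, where 4841 probe sets were called, and 3821 to 5164 under the alternatives. Of 60 pairs of member and window, 10 were high and 13 low. From phase 0-60 to phase 300-360, 39.8%, 38.2%, 20.7%, 7.9%, 14.5% and 12.5% of all probe sets were high. In the same order 43.2%, 30.6%, 22.3%, 6.84%, 14.4% and 13.8% were low, so the pair counts alone do not set the members apart. The low pairs numbered 5 with a linear term in time, 7 with odd samples and 4 with even samples. Over all probe sets, those low in phase 120-180 went from 1221 to 3 with the linear term, 164 with odd samples and 287 with even samples. In phase 240-300 they went from 787 to 4, 242 and 108, and in phase 300-360 from 756 to 27, 258 and 64. Members that differed between phase 0-30 and phase 30-60 numbered 7, 4 with the values as deposited and 6 or 7 with 1 sample left out. Members that differed in the second pass numbered 0, 1 with the values as deposited, and 0 to 1 with 1 sample left out. The cause was not tested, except that subsets hold fewer samples. With a linear term in time the differences of phase 120-180 turned to 0.19 for GAP1, 0.0527 for TAT2, 0.61 for GNP1 and 0.24 for HIP1, and that of DIP5 in phase 0-60 to -0.0509 (-0.02 with even samples). In phase 0-60 GAP1 turned to 0.0293 with the TDH1 term, and TAT1 to 0.16 with quantile normalization, 0.0219 with an offset of 50 and 0.66 with the TDH1 term. For phase 30-60 against 0-30, GAP1 turned to 0.10 as deposited and AGP1 to 0.32 as deposited, 0.0971 with quantile normalization and 0.0645 with the TDH1 term. With 1 sample left out AGP1 ran from -0.134 to 0.0705 (without the sample at 9.7 degrees) and DIP5 from -0.0733 (without that at 55.62 degrees) to 0.424, with -0.0583 without that at 25 degrees. MUP1 in the second pass turned to -0.22 as deposited and -0.0189 without the sample at 251.97 degrees, and 0.243 without that at 244.11 degrees. No paired analysis was possible because the labels give no replicate numbers.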
